A study of Mus musculus with 6 samples.

Results

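The genes described here are the transcriptional coactivators YAP and TAZ, their DNA-binding partner TEAD1 and 7 genes known as their targets or regulators. They were taken from the deposited table by gene symbol (Yap1, Wwtr1, Tead1, Ccn1, Ccn2, Ankrd1, Amotl2, Ajuba, Lats2 and Crim1), and make up 10 of its 21959 genes. Poly(A)-selected RNA was sequenced from 6 libraries of cells labelled as HL-1, a line derived from mouse atrial cardiomyocytes, with wild-type genotype. Several of the marker transcripts given below go against that label, though not all of them do. In 3 libraries the cells had received 50 µg/mL phillyrin, a lignan glucoside, for 8 h before and 16 h together with oxygen-glucose deprivation and reoxygenation (OGD/R). The other 3 came from cells given OGD/R without phillyrin. OGD/R imitates ischemia and reperfusion in culture, and for all cells it meant 4 h without oxygen and glucose, then 24 h of reoxygenation. How the 16 h relate to the 24 h is not stated, and no vehicle-treated or unstressed cells were analysed here. The groups thus show how transcript levels under OGD/R stood with the compound and without it. The deposited table's own annotation places 6 of the 10 members in the Hippo pathway, among 162 genes.

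In the Hippo pathway the kinases MST1 and MST2 activate LATS1 and LATS2, which phosphorylate YAP and its paralogue TAZ and keep them out of the nucleus. Unphosphorylated YAP and TAZ bind TEAD factors on DNA and raise transcription of genes such as Ccn1, Ccn2 and Ankrd1, which are read as a measure of pathway output. Several targets, among them Lats2 and Amotl2, encode inhibitors of YAP and TAZ and form a feedback loop. The pathway responds to cell density, stretch and the actin cytoskeleton, and in heart muscle YAP is known for its role in cardiomyocyte growth and survival.

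Library totals lay between 14761317 and 22123648 counts. With phillyrin 1871 of 11658 genes tested were higher and 1823 lower (31.7% in all, edgeR's quasi-likelihood test, Benjamini-Hochberg adjusted p under 0.05). Without TMM factors, with library size as the scale, these counts were 1313 and 2455. Against the HL-1 label, several defining transcripts of cardiac muscle were at or near 0, while several of skeletal myoblasts were present. Not every marker of either list went that way. Expression is given in CPM, each count relative to a library total scaled by its TMM factor. Myh6 and Actn2 had 0 of the 111513800 counts of the 6 libraries together, so that a level of up to 0.0269 CPM remains possible, and 8 of 12 cardiac markers stayed below 0.5 CPM in every library, the atrial genes Nppa and Myl7 among them. The summed cardiac markers stood between 180.3 and 195.6 CPM with phillyrin, against 150.8 to 151.9 CPM in OGD/R. Most of this was Tnnt2, at 153.3 ± 9.34 CPM with phillyrin and 116.2 ± 1.79 CPM in OGD/R (SD, n = 3 each). Gata4, also on the cardiac list, stood at 28.3 ± 1.01 CPM with phillyrin and 30.8 ± 2.21 CPM in OGD/R. Of the 12 markers 4 were tested, of which 1, Tnnt2, was called higher and 0 lower. Of 6 skeletal myoblast markers 5 were tested, of which 1 was called higher (Myod1) and 2 lower (Myf5 and Chrna1). The 6 summed to 1087 to 1138 CPM with phillyrin against 1119 to 1138 CPM in OGD/R. Most of this was Des, at 694.5 ± 19.8 CPM with phillyrin and 675.2 ± 8.17 CPM in OGD/R. Pax7 stood at 3.17 ± 0.237 CPM with phillyrin and 2.85 ± 0.557 CPM in OGD/R. Myog, which was not tested, reached at most 0.819 CPM with phillyrin and 0.579 CPM in OGD/R. Myod1, the myoblast transcription factor, stood at 97.2 ± 4.09 CPM with phillyrin and 83.1 ± 2.18 CPM in OGD/R, and Myf5, of the same family, at 52.5 ± 2.76 CPM with phillyrin and 64.2 ± 3.65 CPM in OGD/R (SD, n = 3 each). Of 6 fibroblast markers 4 were tested, of which 0 were called higher and 2 lower (Pdgfra and Col1a2). The 6 summed to 769.7 to 790.9 CPM with phillyrin against 896.3 to 908.0 CPM in OGD/R. Col1a2 made up most of this, at 516.9 ± 6.99 CPM with phillyrin and 622.6 ± 5.89 CPM in OGD/R. Col1a1 stood at 246.0 ± 3.12 CPM with phillyrin and 253.8 ± 3.30 CPM in OGD/R. Pdgfra stood at 11.5 ± 0.674 CPM with phillyrin and 19.3 ± 0.697 CPM in OGD/R. Dcn stood at 5.26 ± 0.950 CPM with phillyrin and 4.735 ± 0.416 CPM in OGD/R. Lum, a defining fibroblast marker, had 0 counts in all 6 libraries, and Thy1 stayed below 0.5 CPM in every library. Endothelial markers summed to at most 1.35 CPM with phillyrin and 1.11 CPM in OGD/R, and Kdr and Emcn had 0 counts. Macrophage markers summed to at most 4.24 CPM with phillyrin and 3.19 CPM in OGD/R, and Adgre1 had 0 counts. In bulk RNA, fewer cells of a type and less RNA per cell cannot be told apart, and the part of these marker differences in the results below was not tested.

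The promoters of the members share the core letters that TEAD factors recognise. Promoter sequences, 250 bases before to 50 after each annotated start, came from RefSeq on build GRCm38.p6 and matched 8 of the 10 members, all but Ccn2 and Tead1. The motif GGAATG, searched on both strands, was present in a promoter of 8 of these 8 genes. Over all 32851 promoters of this length 14.7% held it, and 16.6% of 27025 genes had a promoter that did. The 8 genes were picked as pathway members and known targets, so their share is a description. The AP-1 motif TGANTCA, searched the same way, was in a promoter of 0 of the 8 genes, beside 8.97% of all genes and 7.81% of all promoters. At such a share 0 of 8 genes is not unusual. A match of letters does not show that a factor binds there. Ankrd1 had 2 copies of the TEAD motif, 87 bases apart, beginning 210 and 123 bases before the start. Its whole promoter is shown because Ankrd1 was the most abundant member per length and lower with phillyrin, and the Ccn1 promoter because Ccn1 is the closest relative of Ccn2 among the members. Capitals mark the motif, which appears as CATTCC where GGAATG lies on the other strand.
Ankrd1 (chr19:36119795-36120094, minus strand): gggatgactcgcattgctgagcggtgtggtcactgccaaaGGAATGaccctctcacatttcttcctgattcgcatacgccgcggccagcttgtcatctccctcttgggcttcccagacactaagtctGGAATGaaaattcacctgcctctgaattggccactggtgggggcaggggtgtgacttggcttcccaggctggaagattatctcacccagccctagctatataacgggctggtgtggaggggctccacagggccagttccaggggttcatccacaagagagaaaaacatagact
Ccn1 (chr3:145649936-145650235, minus strand): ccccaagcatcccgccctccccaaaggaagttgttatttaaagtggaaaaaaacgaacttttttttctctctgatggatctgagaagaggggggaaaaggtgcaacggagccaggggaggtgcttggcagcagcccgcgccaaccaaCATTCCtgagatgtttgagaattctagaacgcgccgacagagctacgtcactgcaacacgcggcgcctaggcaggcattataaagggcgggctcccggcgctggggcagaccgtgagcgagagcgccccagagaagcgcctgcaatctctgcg

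The copy in Ccn1 began 103 bases before the start. For the other members the motif is given with the 12 bases on each side of it, read along the gene's strand.
Yap1 (chr9:8004720-8004749, minus strand): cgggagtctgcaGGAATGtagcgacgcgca
Wwtr1 (chr3:57576029-57576058, minus strand): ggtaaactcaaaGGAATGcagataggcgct
Amotl2 (chr9:102717727-102717756, plus strand): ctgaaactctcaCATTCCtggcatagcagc
Ajuba, distal (chr14:54577830-54577859, minus strand): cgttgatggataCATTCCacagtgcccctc
Ajuba, proximal (chr14:54577808-54577837, minus strand): tgcccctccgcgCATTCCaactgtaaacaa
Lats2 (chr14:57746102-57746131, minus strand): cgtgacgcccgtGGAATGccaacaatgtag
Crim1 (chr17:78200157-78200186, plus strand): agggcgggggggGGAATGaggtaggatggg

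The 10 sites lay on both strands, 6 reading GGAATG along the gene and 4 against it, and outside the core their letters differed from gene to gene. The 2 copies in Ajuba were 22 bases apart. Wwtr1 has 2 annotated starts close together, and its single site fell in both windows, 136 and 170 bases before them. Lats2 has 2 annotated starts of which 1 held the motif, beginning at base 5 after the start. Among the other lists, 2 of 10 signature targets with a promoter entry held the motif (Axl and Ptpn14), as did 1 of 6 further targets (Edn1), 4 of 23 Hippo kinases and upstream regulators, and 5 of 15 TEADs and partners. These lists are described below.

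**Figure D1:**
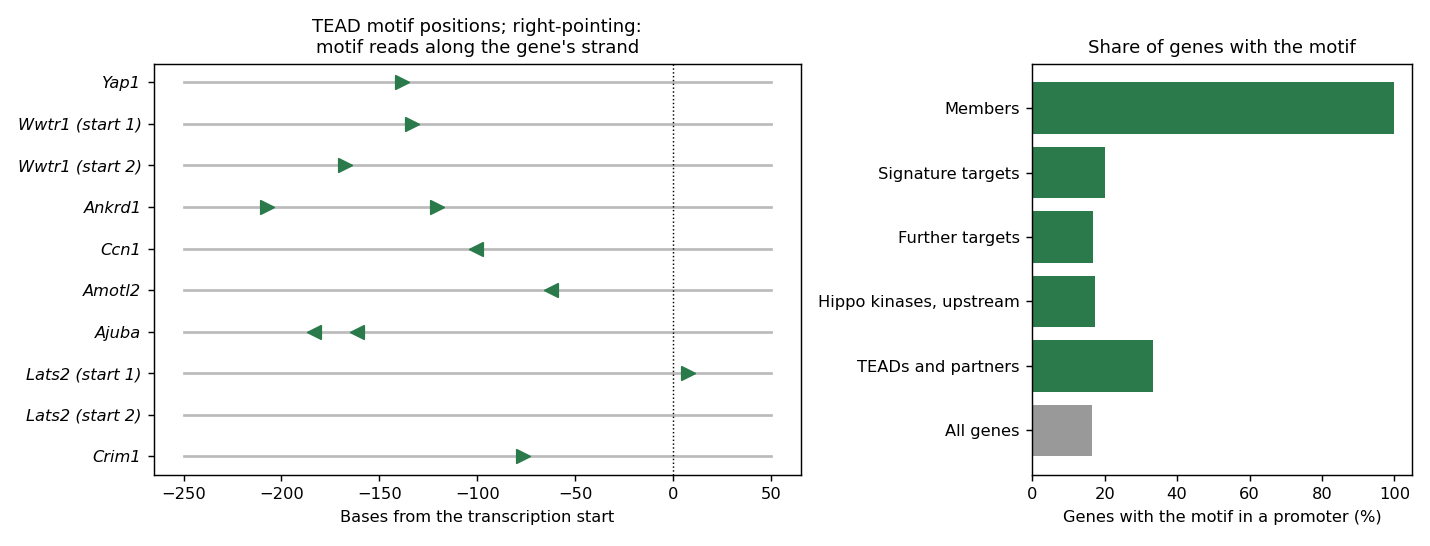
Left, position of the TEAD motif in bases from the transcription start for the 8 members with a promoter entry (arrowheads; grey lines, windows of 300 bases). Right, percent of genes with the motif in a promoter: 100% of the 8 members with an entry against 16.6% of all genes.

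The transcripts of YAP, TAZ and TEAD1 differed little between the groups, while those of target genes stood on both sides of 0. Gene coordinates are on build GRCm39, fold changes are phillyrin over OGD/R with a 95% interval from the fit across all genes, and SD is over 3 libraries. The members were proposed with this contrast known, so their differences are given as a description with no p-value. By the call rule above, 4 of the 10 members passed, 1 higher and 3 lower, beside 31.7% of all genes tested (16.0% higher and 15.6% lower), and nothing is read from that count. Scaled by library size only, 1 passed as higher and 6 as lower. The libraries of the 2 groups did not overlap for 6 members, 1 higher and 5 lower, beside 43.1% of all genes tested (21.5% higher and 21.6% lower). All 10 members passed the filter on low counts, and their median log2 fold change was -0.08, beside -0.01 over all genes tested.

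Yap1 (ENSMUSG00000053110, GRCm39 chromosome 9, 7932000 to 8004597), which encodes the coactivator YAP, had 115.5, 119.8 and 129.1 CPM in the phillyrin libraries, against 113.4, 119.4 and 118.9 CPM in the OGD/R libraries. The groups overlapped, with a fold of 1.03 (95% interval 0.972 to 1.10). Wwtr1 (ENSMUSG00000027803, chromosome 3, 57363070 to 57483331), which encodes TAZ, had 294.0, 301.2 and 303.5 CPM with phillyrin, against 278.9, 300.5 and 302.7 CPM in OGD/R. Its groups also overlapped, and its fold was 1.02 (0.969 to 1.07). Tead1 (ENSMUSG00000055320, chromosome 7, 112278525 to 112506014), the DNA-binding partner, had 287.9, 259.2 and 295.7 CPM with phillyrin, against 288.9, 273.2 and 292.0 CPM in OGD/R. Phillyrin replicate 2 was the lowest of the 6 libraries, the groups overlapped, and the fold was 0.985 (0.932 to 1.04). For these 3 genes the intervals of the fold change together span 0.932 (Tead1) to 1.10 (Yap1).

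Ccn2 (ENSMUSG00000019997, chromosome 10, 24471340 to 24474581), the connective tissue growth factor, a secreted matricellular protein, was the member that was higher. It had 139.6, 142.9 and 152.6 CPM in the phillyrin libraries, against 88.4, 88.4 and 83.2 CPM in the OGD/R libraries. Every phillyrin library lay above every OGD/R library, with a fold of 1.67 (95% interval 1.57 to 1.78, log2 fold change 0.74, SE 0.05). Ccn1 (ENSMUSG00000028195, chromosome 3, 145352731 to 145355736), also called Cyr61 and of the same family, had 174.7, 175.6 and 188.8 CPM with phillyrin, against 185.0, 193.4 and 183.7 CPM in OGD/R. Its groups overlapped and its fold was 0.958 (0.907 to 1.01). The ratio of Ccn2 to Ccn1, per length and within each library, was 0.564, 0.574 and 0.570 with phillyrin, against 0.337, 0.323 and 0.320 in OGD/R. The pair of CCN transcripts thus stood in a different proportion in the 2 groups, with Ccn1 the more abundant of the 2 in all 6 libraries.

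Ankrd1 (ENSMUSG00000024803, chromosome 19, 36089361 to 36097499), a muscle ankyrin repeat protein of the sarcomere and the nucleus, was lower with phillyrin. It had 362.4, 321.4 and 300.5 CPM in the phillyrin libraries, against 492.0, 483.9 and 474.4 CPM in the OGD/R libraries. The groups were far apart, with a fold of 0.679 (95% interval 0.637 to 0.724, log2 fold change -0.56, SE 0.05), and the phillyrin libraries were spread more widely than the OGD/R libraries. Without any single library its log2 fold change lay between -0.63 and -0.50. The ratio of Ankrd1 to Ccn2 per length was 2.57, 2.23 and 1.95 with phillyrin, against 5.52, 5.42 and 5.65 in OGD/R. Per length, Ankrd1 over Ccn1 was 1.28 ± 0.169 with phillyrin and 1.81 ± 0.0552 in OGD/R (SD, n = 3 each). Ankrd1 and Ccn2, both textbook YAP/TAZ targets, thus stood on opposite sides of their OGD/R levels in each phillyrin library.

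**Figure D2:**
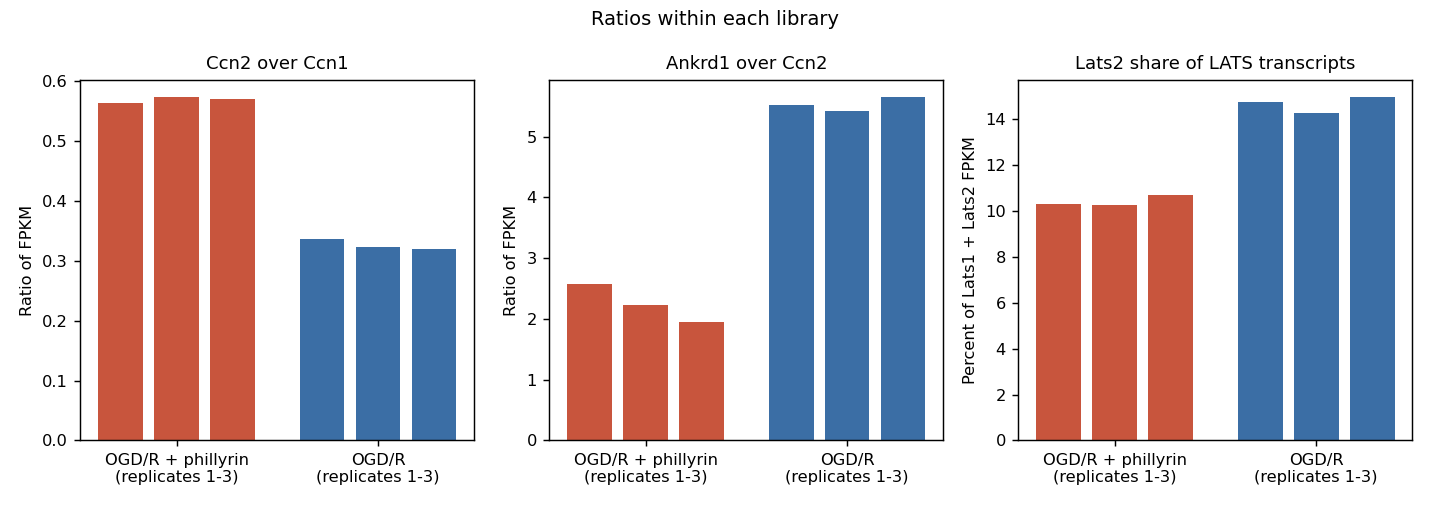
Ratios of FPKM within each of the 6 libraries (bars) for Ccn2 over Ccn1, Ankrd1 over Ccn2 and the share of Lats2 among LATS transcripts in percent. The bars of the 3 phillyrin libraries do not overlap those of the 3 OGD/R libraries in any panel (Ccn2 over Ccn1, 0.564 to 0.574 with phillyrin against 0.320 to 0.337 in OGD/R).

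Crim1 (ENSMUSG00000024074, chromosome 17, 78507677 to 78684021), a transmembrane protein that binds growth factors of the BMP family, had 35.1, 35.6 and 34.8 CPM with phillyrin, against 45.2, 44.9 and 44.8 CPM in OGD/R. The groups were apart, with a fold of 0.782 (95% interval 0.717 to 0.853). Fez2, which overlaps Crim1 on the other strand and whose reads cannot be told from it without strand, stood at 58.1 ± 2.99 CPM with phillyrin and 59.2 ± 0.372 CPM in OGD/R (SD, n = 3 each). Lats2 (ENSMUSG00000021959, chromosome 14, 57927119 to 57995845), the kinase that phosphorylates YAP and TAZ, had 34.6, 33.2 and 34.5 CPM with phillyrin, against 41.6, 41.0 and 44.1 CPM in OGD/R. All phillyrin libraries lay below all OGD/R libraries, and the fold was 0.807 (0.738 to 0.883). Gm49361, which overlaps Lats2 on the same strand, had 0 counts in every library.

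Amotl2 and Ajuba each stood slightly lower with phillyrin. Amotl2 (ENSMUSG00000032531, chromosome 9, 102593871 to 102610617), an angiomotin that binds YAP and holds it in the cytoplasm, had 116.8, 119.0 and 106.0 CPM with phillyrin, against 123.1, 121.2 and 120.9 CPM in OGD/R. The groups did not overlap, but phillyrin replicate 2 came close to the lowest OGD/R library, and the fold was 0.938 (95% interval 0.882 to 0.998). Ajuba (ENSMUSG00000022178, chromosome 14, 54804929 to 54815015), a LIM domain protein that binds LATS kinases and restrains them, had 48.0, 47.1 and 44.1 CPM with phillyrin, against 49.0, 50.1 and 53.4 CPM in OGD/R. The groups did not overlap, with a fold of 0.915 (0.841 to 0.994). The upper ends of these intervals, 0.998 and 0.994, lay close to no change. The size of such small differences depended on the scaling. With TMM factors the log2 fold change was -0.092 for Amotl2, -0.129 for Ajuba and -0.062 for Ccn1. With library size as the only scale it was -0.135, -0.172 and -0.106.

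**Figure D3:**
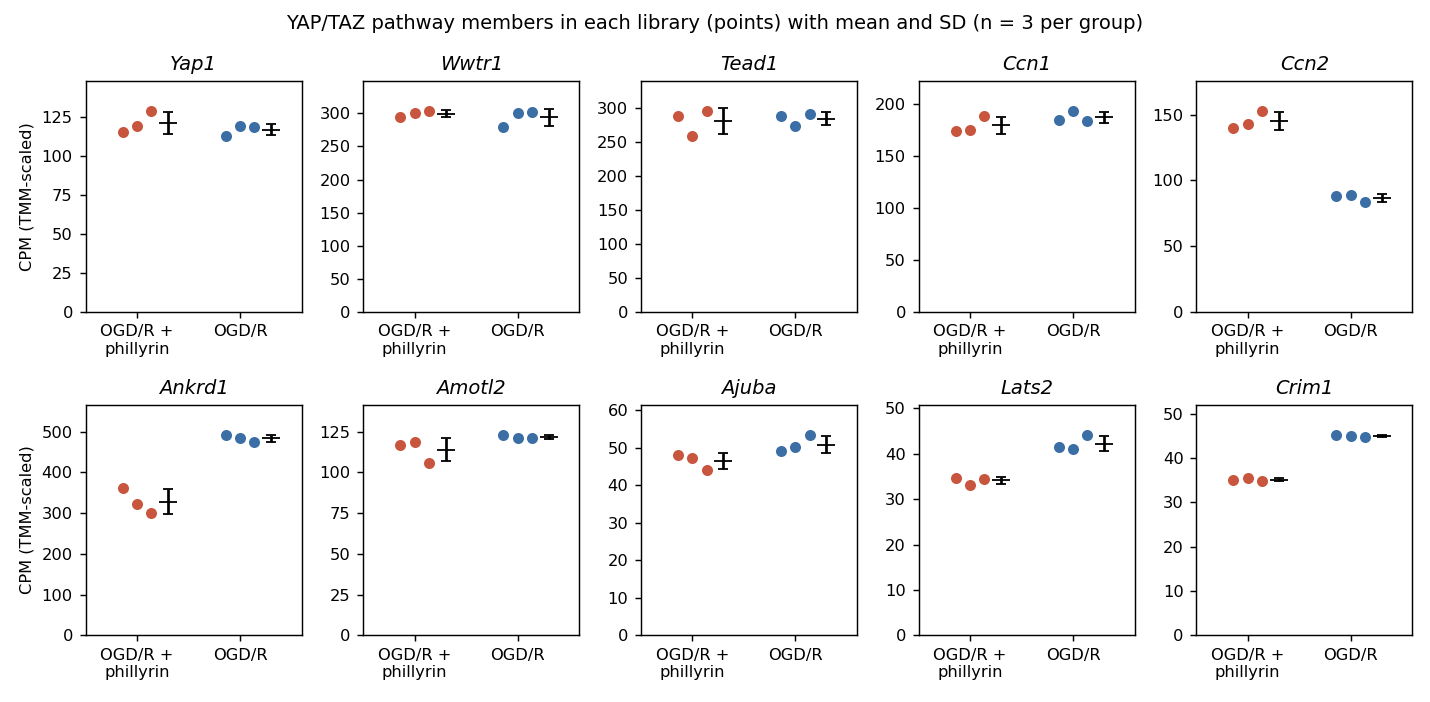
CPM in each library (points) with the mean and SD of 3 libraries (bars) for the 10 members, OGD/R with phillyrin left of OGD/R, axes from 0. Ccn2 is higher with phillyrin (145.0 CPM on average, against 86.7 CPM in OGD/R), Ankrd1, Lats2 and Crim1 are lower, and Yap1, Wwtr1 and Tead1 overlap.

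The spread between replicates differed between members. For Ankrd1 the coefficient of variation was 9.60% over the phillyrin libraries and 1.82% over the OGD/R libraries, where counting alone would give 1.31% and 1.03%. For Tead1 it was 6.83% with phillyrin and 3.54% in OGD/R. For Crim1 it was 1.16% with phillyrin and 0.541% in OGD/R, below the 4.00% and 3.38% that counting alone would give on average. In 7 of the 10 members the phillyrin libraries varied more than the OGD/R libraries. Phillyrin replicate 3, the shallowest library, was the highest of its group for Yap1, Wwtr1, Tead1, Ccn1 and Ccn2 and the lowest for Ankrd1, Amotl2, Ajuba and Crim1.

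Levels of different genes were compared per length, as FPKM, which takes both gene length and library total into account. The total here is not scaled by the TMM factor, so group differences in FPKM can depart from those in CPM. With TMM-scaled totals, for example, Wwtr1 stood at 62.7 FPKM with phillyrin and 61.5 FPKM in OGD/R. In plain FPKM the Ccn1 groups, which overlapped in CPM, were apart (85.7 to 91.1 with phillyrin, 92.2 to 97.2 in OGD/R). Ankrd1 led at 112.0 ± 11.6 FPKM with phillyrin and 170.1 ± 3.45 FPKM in OGD/R, followed by Ccn1 at 87.6 ± 3.01 FPKM with phillyrin and 94.2 ± 2.65 FPKM in OGD/R (SD, n = 3 each). Wwtr1 came next at 61.7 ± 0.723 FPKM with phillyrin and 62.5 ± 2.66 FPKM in OGD/R. Ccn2 stood at 49.9 ± 1.85 FPKM with phillyrin and 30.8 ± 1.11 FPKM in OGD/R, followed by Tead1 (20.4 ± 1.28 FPKM with phillyrin and 21.3 ± 0.757 FPKM in OGD/R) and Amotl2 (17.9 ± 1.24 FPKM with phillyrin and 19.7 ± 0.238 FPKM in OGD/R). Ajuba (12.5 ± 0.664 FPKM with phillyrin and 14.2 ± 0.616 FPKM in OGD/R) and Yap1 (12.9 ± 0.615 FPKM with phillyrin and 12.9 ± 0.337 FPKM in OGD/R) were neighbours whose phillyrin libraries overlapped and whose OGD/R libraries did not. Crim1 (5.77 ± 0.114 FPKM with phillyrin and 7.62 ± 0.0576 FPKM in OGD/R) and Lats2 (4.82 ± 0.103 FPKM with phillyrin and 6.15 ± 0.236 FPKM in OGD/R) were lowest. All other neighbours in this order were apart in both groups.

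The TAZ transcript was the more abundant of the coactivator pair in every library. The ratio of Wwtr1 to Yap1 per length was 4.93, 4.87 and 4.55 with phillyrin, against 4.76, 4.88 and 4.93 in OGD/R, and the groups overlapped. Of the summed FPKM of the 4 TEAD genes, Tead1 made up 44.2 ± 1.84% with phillyrin and 42.8 ± 0.441% in OGD/R (SD, n = 3 each). Tead2 made up 34.7 ± 0.288% with phillyrin and 32.4 ± 0.478% in OGD/R, and Tead4 17.2 ± 1.49% with phillyrin and 19.3 ± 0.809% in OGD/R. Tead3 was the smallest part, 3.91 ± 0.646% with phillyrin and 5.55 ± 0.437% in OGD/R. Lats2 made up 10.3%, 10.3% and 10.7% of the summed LATS FPKM with phillyrin, against 14.8%, 14.3% and 15.0% in OGD/R, so Lats1 was the more abundant LATS transcript throughout. Among the angiomotins Amotl2 made up 42.7 ± 2.05% with phillyrin and 44.0 ± 0.603% in OGD/R, Amotl1 40.6 ± 2.11% with phillyrin and 39.1 ± 0.223% in OGD/R, and Amot 16.7 ± 0.0605% with phillyrin and 16.9 ± 0.731% in OGD/R.

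**Figure D4:**
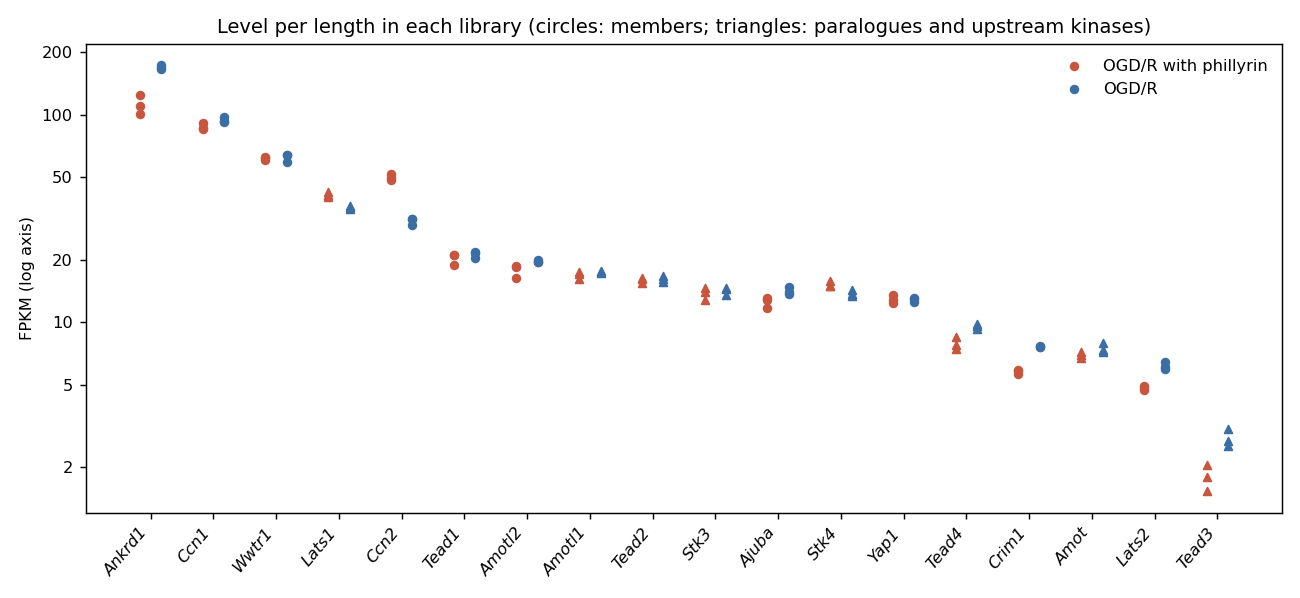
FPKM on a log axis in each library for the members (circles) and their paralogues and upstream kinases (triangles), OGD/R with phillyrin left of OGD/R for each gene, ordered by the OGD/R mean. Ankrd1 is highest (112.0 FPKM with phillyrin, 170.1 FPKM in OGD/R) and Tead3 lowest (1.80 FPKM with phillyrin, 2.77 FPKM in OGD/R).

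The rest of the pathway was followed through 4 lists outside the members, tested in the same fit with p-values adjusted over all genes. These lists were chosen with earlier results of these data known, so their counts and shares are a description. Of 30 Hippo kinases, adaptors and upstream regulators 28 were tested, of which 7 rose, 4 fell and 17 did not pass. Their median log2 fold change was -0.01, as over all genes. The share called, 39.3%, stands beside 31.7% of all genes. With library size as the only scale, 5 rose and 8 fell. Lats1, the paralogue of Lats2, rose to 306.4 ± 7.02 CPM with phillyrin, against 257.1 ± 5.53 CPM in OGD/R (SD over 3 libraries; log2 fold change 0.25 with SE 0.04, edgeR adjusted p = 6.83e-07). The LATS pair thus stood on opposite sides of 0. Mob1a, the coactivator of LATS kinases, rose to 451.5 ± 9.47 CPM with phillyrin, against 402.4 ± 2.48 CPM in OGD/R (edgeR adjusted p = 0.000190). Stk4, which encodes MST1, rose (log2 fold change 0.19, SE 0.05, edgeR adjusted p = 0.00442), while Stk3, which encodes MST2, was at 0.00 (SE 0.05, edgeR adjusted p = 0.982). Map4k4, a kinase that can act on LATS beside the MST kinases, rose to 733.0 ± 19.95 CPM with phillyrin, against 600.0 ± 12.5 CPM in OGD/R (edgeR adjusted p = 1.06e-08). Wwc2, of the KIBRA family, rose (log2 fold change 0.19, SE 0.04, edgeR adjusted p = 0.000280), and Sike1, of the STRIPAK phosphatase complex that restrains MST kinases, fell (-0.25, SE 0.06, edgeR adjusted p = 0.00197). Stk4 and Wwc2 overlap Tomm34 and Cldn22 on the other strand. Map4k1 had at most 11 counts in a library and was not tested, and Dchs1 had 0 in all 6.

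Of 21 other TEADs, VGLL cofactors and cytoplasmic partners 20 were tested, of which 7 rose, 4 fell and 9 did not pass, and the median log2 fold change was 0.05. Tead3 fell to 12.2 ± 1.68 CPM with phillyrin, against 18.3 ± 1.79 CPM in OGD/R (SD over 3 libraries; log2 fold change -0.56 with SE 0.11, edgeR adjusted p = 6.82e-05). Tead4 fell to 28.9 ± 1.88 CPM with phillyrin, against 33.9 ± 0.960 CPM in OGD/R (log2 fold change -0.23, SE 0.07, edgeR adjusted p = 0.0138), a call lost without phillyrin replicate 1 (0.0863) or OGD/R replicate 3 (0.0623). Tead2, which overlaps Cd37 on the other strand, was at 0.03 (SE 0.05, edgeR adjusted p = 0.689). Of the vestigial-like cofactors, which also bind TEADs, Vgll2 rose to 27.7 ± 1.87 CPM with phillyrin, against 19.6 ± 0.453 CPM in OGD/R (edgeR adjusted p = 5.87e-06). Vgll3 rose as well (log2 fold change 0.22, SE 0.06, edgeR adjusted p = 0.00697), and Vgll4 was at 0.09 (SE 0.08, edgeR adjusted p = 0.418). Of the 7 14-3-3 genes on the list, whose proteins hold phosphorylated YAP in the cytoplasm, 3 rose, 0 fell and 4 did not pass (Ywhae, Ywhah, Ywhaq and Sfn). Over all genes tested 16.0% were called higher and 15.6% lower, and nothing is read from a count over 7 genes. Ywhag rose to 857.5 ± 30.9 CPM with phillyrin, against 666.3 ± 4.86 CPM in OGD/R (edgeR adjusted p = 4.65e-11), and Ywhab to 428.0 ± 3.92 CPM with phillyrin, against 373.4 ± 6.42 CPM in OGD/R (edgeR adjusted p = 1.73e-05). The third, Ywhaz, named after its values were seen, rose by 0.11 on the log2 scale (SE 0.03, edgeR adjusted p = 0.0155). It was not called with library size as the only scale, nor when phillyrin replicate 3, OGD/R replicate 1 or OGD/R replicate 2 was left out. Limd1, a LIM protein of the Ajuba family, rose (log2 fold change 0.21, SE 0.05, edgeR adjusted p = 0.00112). Amot and Amotl1, the paralogues of Amotl2, were at -0.07 (SE 0.06) and 0.00 (SE 0.04) and did not pass. Without phillyrin replicate 1 or OGD/R replicate 3, 2 genes of this list fell. Besides Tead4 the call lost was that of Wtip, named after its values were seen (edgeR adjusted p = 0.0206 with all libraries, 0.0726 when phillyrin replicate 1 was left out, 0.108 for OGD/R replicate 3 and 0.0511 for OGD/R replicate 1). Vgll1 had 0 counts in all libraries.

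Other targets also stood on both sides. The first list holds 16 genes of a published YAP/TAZ target signature, none of them a member, of which 14 were tested. Of these 4 rose, 4 fell and 6 did not pass, and the median log2 fold change was 0.08. Ccdc80, a secreted matrix protein, rose to 78.7 ± 1.98 CPM with phillyrin, against 55.3 ± 2.37 CPM in OGD/R (SD over 3 libraries; log2 fold change 0.51 with SE 0.05, edgeR adjusted p = 1.96e-09). Nt5e, the ectonucleotidase CD73, and the RNA-binding protein gene Rbms3 also rose (log2 fold changes 0.50, SE 0.12, and 0.29, SE 0.07; edgeR adjusted p = 0.00150 and 0.00119). Myof, which encodes the membrane repair protein myoferlin, fell to 785.9 ± 11.1 CPM with phillyrin, against 933.3 ± 6.12 CPM in OGD/R (edgeR adjusted p = 1.00e-07). Asap1, an ARF GTPase-activating protein, fell (log2 fold change -0.20, SE 0.04, edgeR adjusted p = 8.71e-05). Igfbp3 had 0 counts, and Fjx1 had at most 12 counts in a library and was not tested.

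Of 10 further reported targets 9 were tested, of which 4 rose, 3 fell and 2 did not pass, and the median log2 fold change was 0.22. Inhba, the activin A subunit, rose to 270.1 ± 6.97 CPM with phillyrin, against 168.5 ± 12.5 CPM in OGD/R (SD over 3 libraries; log2 fold change 0.68 with SE 0.04, edgeR adjusted p = 2.95e-15). Areg, the EGF receptor ligand amphiregulin, rose to 83.3 ± 2.31 CPM with phillyrin, against 71.5 ± 0.751 CPM in OGD/R (edgeR adjusted p = 0.000926). Birc5, survivin, which is also a gene of mitosis, rose to 134.6 ± 1.69 CPM with phillyrin, against 106.9 ± 2.00 CPM in OGD/R (edgeR adjusted p = 1.01e-07). Thbs1, the matricellular protein thrombospondin 1, fell to 366.8 ± 10.6 CPM with phillyrin, against 484.3 ± 8.31 CPM in OGD/R (log2 fold change -0.40, SE 0.03, edgeR adjusted p = 9.12e-12). Fosl1, an AP-1 subunit that overlaps Ccdc85b on the other strand, fell (-0.29, SE 0.08, edgeR adjusted p = 0.00420), a call lost without phillyrin replicate 1 (0.0601). Dkk1 had 0 counts. The shares called were 57.1% of signature targets, 77.8% of further targets and 55% of TEADs and partners, in lists of 9 to 20 genes, beside 31.7% of all genes. Because of how the lists were chosen, nothing is read from these shares.

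**Figure D5:**
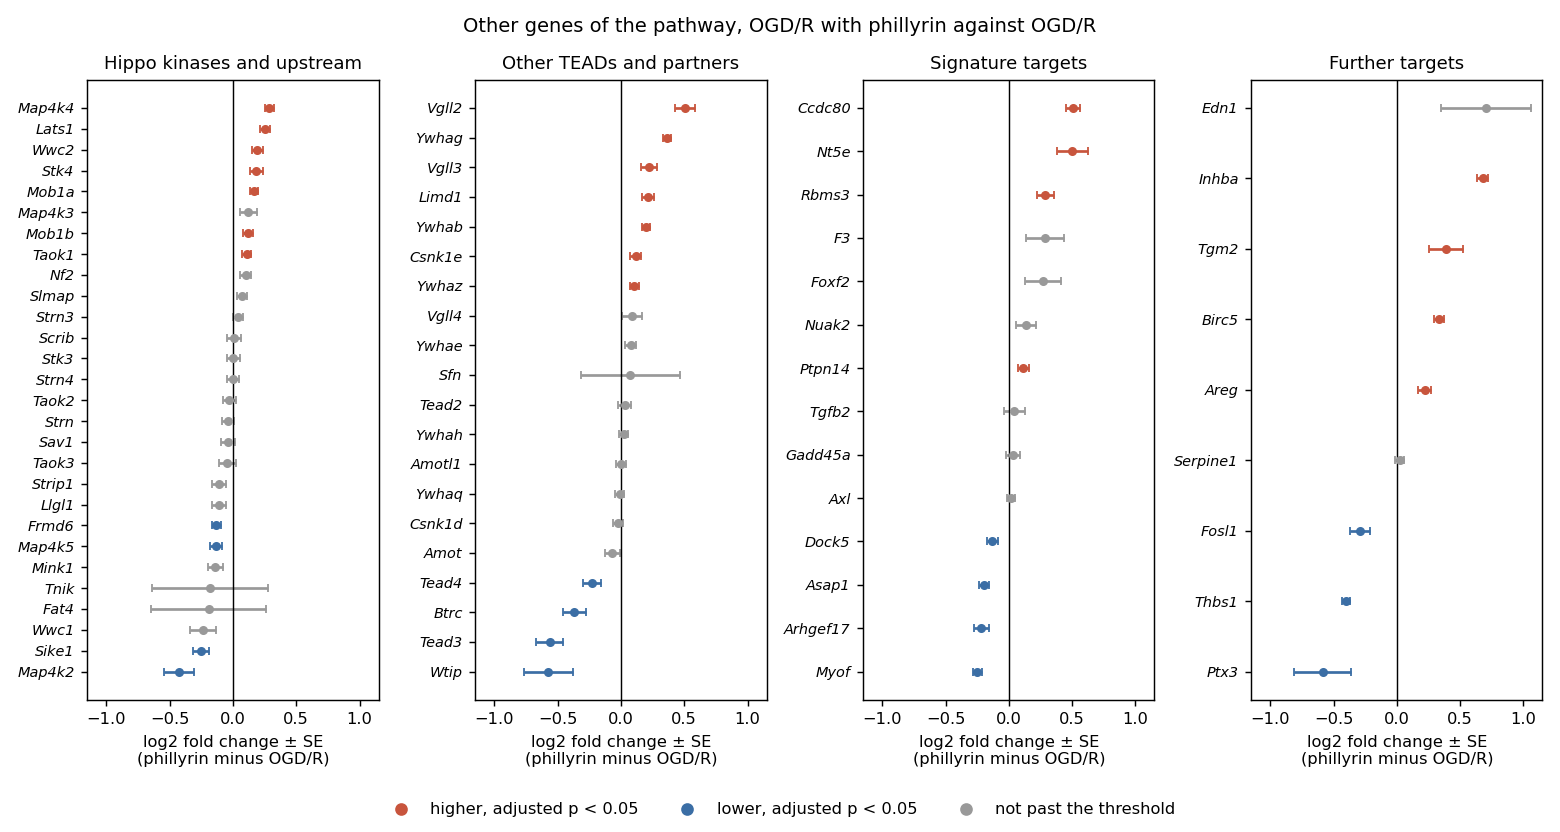
Log2 fold change with its standard error (horizontal bars), OGD/R with phillyrin minus OGD/R, for each tested gene of the 4 lists; red, called higher; blue, called lower; grey, not past an adjusted p of 0.05. Each list holds genes on both sides of 0, for example Inhba (0.68) and Thbs1 (-0.40), Vgll2 (0.51) and Tead3 (-0.56).

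Likeness of pattern was measured as the root mean square difference of log2 CPM, centred on each gene's mean, over the 6 libraries. Nearest to Ccn2 were Sox4, a transcription factor (difference 0.0452), the keratin gene Krt14 (0.0528) and the annexin gene Anxa8 (0.0579), with log2 fold changes of 0.75, 0.75 and 0.65. Nearest to Ankrd1 were Spp1, which encodes osteopontin (0.0470), Tcim (0.0490) and the clock gene Per1 (0.0561), with log2 fold changes of -0.64, -0.59 and -0.60. Nearest to Ccn1 were Uhrf1bp1l (0.0136), Drap1 (0.0154) and Mettl9 (0.0168), all with log2 fold changes between -0.08 and -0.04. The measure is not scaled by how much a gene varies, and Ccn1 varied little. Its smaller differences therefore do not mean a closer likeness than those of Ccn2 and Ankrd1. None of these 9 genes is on the pathway lists, and the order is a description over 6 libraries of 2 groups.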

How the data were processed

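Trimmomatic 0.39, HISAT2 2.2.1, featureCounts 2.0.3, DESeq2 1.34.0 and build GRCm39 are named, without roles, in the submitters' processing notes. The sources used here do not give the strand setting or how multi-mapping reads were treated. For each gene and library the authors deposited a raw read count and an FPKM; the FPKM equalled count over length and library total to a relative 2.43e-07. Counts were filtered with filterByExpr, scaled by TMM and passed to the quasi-likelihood test of edgeR (4.0.16, limma 3.58.1, R 4.3.3), two-sided, Benjamini-Hochberg over 11658 genes. SE is the size of the log2 fold change over the root of its F statistic. Columns were assigned by sample title. All libraries share 1 batch label and the fit has no covariate. Separate cultures are not stated in the labels, so a p-value here measures spread among libraries that may be technical replicates. Limits set on 0 counts are 3 counts and cover counting error only. On counts simulated for 11658 genes of this comparison, with 200 changed, 62.7% of 1.25-fold, 91.0% of 1.5-fold and 87.9% of 2-fold changes were recovered, and 11 of 172 calls were false. Far more genes, 31.7%, were called in the data themselves, so these rates need not hold for them.

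Members and lists were chosen with earlier results of these data known. Named were all members, 10 fixed pathway genes, the 5 smallest p-values of each list and the 3 nearest genes to Ccn1, Ccn2 and Ankrd1 whose mean log2 CPM reached 2 (prior count 2). Motif counts of the other lists were added after seeing the data. Alternatives tried were DESeq2 1.42.0, voom, RLE factors or plain library size for scaling, every gene kept or those with a mean of at least 1 CPM, leaving out each library, and a block for the replicate number.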

Additional observations from a re-analysis of the deposited data

How the results depend on the processing

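Under all alternatives run, Ccn2 stayed higher (log2 fold change 0.70 to 0.78) and Ankrd1 (-0.63 to -0.50), Lats2 (-0.35 to -0.28) and Crim1 (-0.40 to -0.34) lower, while Wwtr1 (-0.02 to 0.05) and Tead1 (-0.07 to 0.04) lay on either side of 0. Scaled by library size only, 6 members (in place of 3) and 8 Hippo kinases and upstream regulators (in place of 4) were called lower; TMM factors were 0.974 to 0.991 with phillyrin and 1.01 to 1.02 in OGD/R. With any 1 library left out, 1 member was called higher and 3 lower, and between 2 and 4 TEADs and partners were called lower. With a minimum mean of 5 log2 CPM in place of 2, 1 of the 3 genes nearest to Ankrd1 was kept (Spp1). For Ccn2 2 of the 3 were kept (Sox4 and Anxa8), and for Ccn1 all 3. In the 250 bases before the start alone, 7 of the 8 members with an entry held the TEAD motif, all but Lats2.

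Replicate numbers were not taken to pair the libraries. Same-numbered libraries correlated at 0.00278, 0.00561 and 0.00322 in their deviations from the group means, and differently numbered ones at -0.00459 to 0.00126. All of these values are too small to tell pairing from none. With the number as a replicate block 1867 genes were higher and 1841 lower, and 1 member was higher and 3 lower. At 3 libraries against 3 the smallest two-sided p of an exact permutation test is 0.1, and the calls therefore depend on edgeR's pooling of variance over genes. Low counts limit some list genes: the 6 without a test had at most 12 counts in any library.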
